A study of Sus scrofa with 12 samples.

Results

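The comparison described here is the difference between libraries titled 4c and libraries titled 2c inside porcine (Sus scrofa) embryos depleted of cyclin B2, the product of CCNB2. Its members were the libraries whose treatment was si-CCNB2, taken by title, which gave 3 si-4c and 3 si-2c libraries, 6 of the 12 libraries of the series. The embryos were produced by in vitro fertilisation of in vitro matured oocytes of Long White gilts with semen of Landrace boars, and a short interfering RNA against CCNB2 was injected after fertilisation. Each library was a pool of 10 embryos by the methods of the study, and p-values therefore measure the spread between pools. The other 6 libraries, con-2c and con-4c with 3 each, carried the label blank control, and they entered the fit to share 1 estimate of spread and are quoted as a reference. The methods call them both normal and the negative control of the injected RNA, so whether they were injected is not clear, and an effect of injection cannot be told apart from that of the short interfering RNA in any value set against them. The injected RNA left CCNB2 reads in every si library, and the expression of single blastomeres cannot be read from a pool.

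The stage of each library was labelled in 2 opposite ways. In the tissue field, libraries titled 2c were described as 4-cell and libraries titled 4c as 2-cell embryos, in the si and in the control libraries alike. The names si-2c and si-4c below are the titles only. Words such as rose, fell or stayed, said of a gene between titles, give si-4c relative to si-2c and state no course in time. Reading the tissue label instead would turn the sign of every difference below, while the same libraries would be compared. Among the si libraries, si-2c replicate 3 stood furthest from the others of its title in counts (chi-square over degrees of freedom 37.8 and 38.7, against 8.21 to 15.4 in the si pairs without it), and the number of calls is given without it too.

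Cyclin B2 pairs with the kinase CDK1 and takes part in entry into and passage through mitosis, beside its relative cyclin B1. An early mammalian embryo starts with mRNA that the oocyte stored, clears much of that mRNA during the first cleavages, and starts transcription from its own genome, a step called zygotic genome activation. In the pig this step is best known at the 4-cell stage, and EIF1AX and DPPA2 are followed as genes of the activated genome, while BTG4, GDF9 and the zona pellucida genes are known as maternal transcripts.

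The agent that defines these libraries is a short RNA, and the study lists a pair of sequences against CCNB2 without naming strand or direction. They are printed here in the order of bases listed, because every library of the comparison received this treatment. Each has 19 bases, with 8 G or C in Si-CCNB2-2 and 10 in Si-CCNB2-1. Whether these libraries received one of them or both was not stated in the labels.
Si-CCNB2-2: gcuuauaccaguucccaaa
Si-CCNB2-1: gcagguccacuccaaguuu

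The level of the targeted gene comes first, as a check of the treatment. CCNB2 (ENSSSCG00000004588, chr1:112907047-112942218) had 17.8, 28.8 and 21.6 CPM in si-2c against 40.7, 46.8 and 40.3 CPM in si-4c. Positions here and below are those of the RefSeq gene in the pig build Sscrofa11.1, matched by symbol. The libraries of the titles did not overlap, and the si-4c level was 1.88 times the si-2c level (log2 difference 0.91, SE 0.13, edgeR adjusted p 5.63e-05). The difference passed the p threshold but lay below the minimum log2 fold change of 1 that was used for a call, and it passed that minimum (log2 fold change 1.11) without si-2c replicate 2. In the control libraries CCNB2 was between 429 and 510.4 CPM, so that all 6 si libraries were far below all 6 control libraries. All levels here are TMM-scaled CPM (counts scaled to a common library size with the TMM factors of edgeR). CPM is a share of the RNA read in a pool, so less RNA per embryo and fewer cells that carry it cannot be told apart. CCNB1 (ENSSSCG00000029326, chr16:47338239-47348385), the related mitotic cyclin, had 954, 1077 and 1280.3 CPM in si-2c against 2134, 2261 and 2026 CPM in si-4c (log2 difference 0.96, SE 0.11, edgeR adjusted p 4.65e-06). CCNB1 too lay just below the fold threshold, and it passed it (log2 fold change 1.08) without si-2c replicate 3. CDK1 (ENSSSCG00000010214, chr14:64233945-64255290), the kinase that both cyclins activate, had 96.7, 110.1 and 144 CPM in si-2c against 102, 115 and 99.8 CPM in si-4c. The CDK1 libraries overlapped, and the difference did not pass the test (log2 difference -0.15, SE 0.13, edgeR adjusted p 0.46). Over the alternatives named in the processing section it lay between -0.53 and 0.03, with adjusted p from 0.00472 to 0.888.

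**Figure D1:**
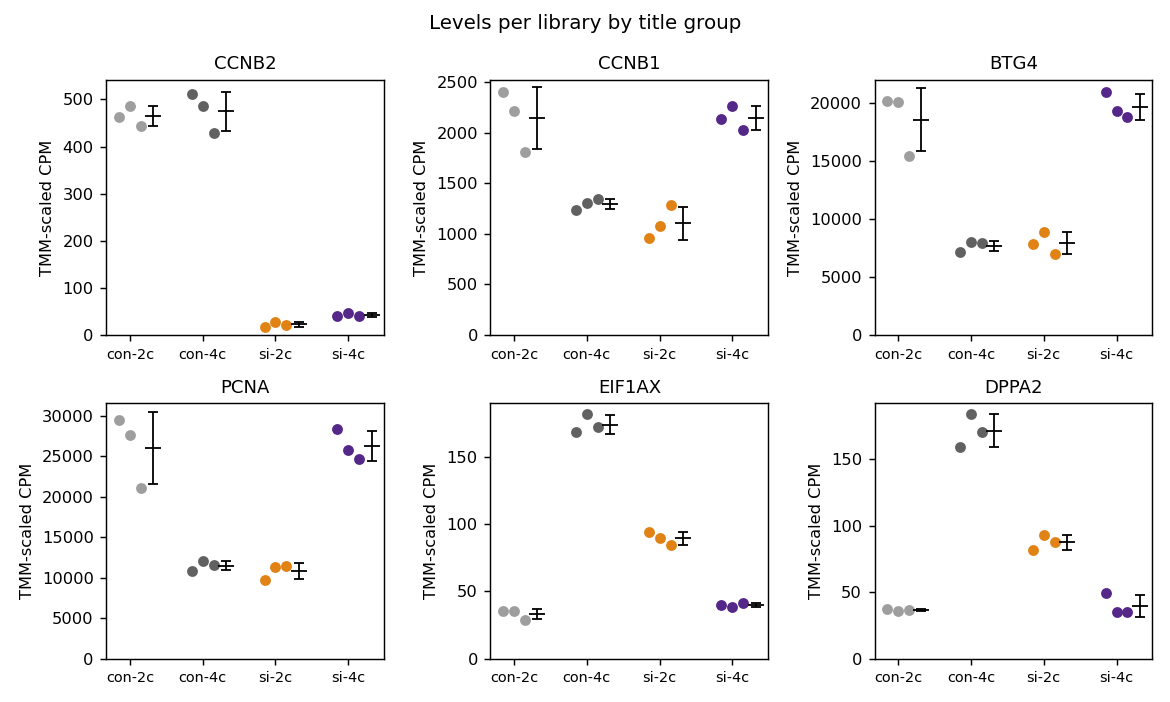
TMM-scaled CPM (vertical axis, from 0) of CCNB2, CCNB1, BTG4, PCNA, EIF1AX and DPPA2 in each of the 12 libraries (points), with the mean and SD of the 3 libraries of each title group beside them. The si-4c and si-2c points do not overlap in any of the 6 panels, and the 6 si points of CCNB2 lie far below the 6 control points.

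Across all genes, most calls were lower in si-4c. A gene was called when its edgeR adjusted p was under 0.05 and its log2 fold change was 1 or more in size. Higher calls in si-4c numbered 264 (1.47% of the 17995 genes tested) and lower calls 2136 (11.9%), so that 89.0% of the 2400 calls (13.3% of genes) were lower. Without si-2c replicate 3 there were 330 higher and 1846 lower calls. At an unadjusted p below 0.05 the numbers were 2778 higher and 4120 lower. The 3 libraries of one title lay wholly on one side of the 3 of the other in 2322 of the 2400 calls, beside 42.8% of all tested genes. When libraries were scaled by their totals alone, 50 genes were called higher and 3096 lower, and the median log2 difference over all genes moved from -0.13 to -0.51. A library total was between 33270517 and 38649571 counts in si-2c and between 36612707 and 38281817 in si-4c. The TMM factors were 1.12 to 1.21 in si-2c and 0.871 to 0.915 in si-4c, and the 50 most abundant genes took 27.5% to 31.6% and 37.7% to 39.2% of the counts. The totals of the titles overlapped, while the TMM factors and the share of the top genes did not. The calls without the TMM factors are those given above for library totals, and the part of the top genes in the calls was not tested.

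The 2 directions differed in the size of the change. With no minimum fold, 2169 genes were higher and 3034 lower at an edgeR adjusted p below 0.05. At a log2 fold change of at least 2 the numbers were 12 and 1698, at 3 they were 8 and 1416, and at 5 they were 5 and 943. Genes higher in si-4c thus differed mostly by less than 4-fold, and many genes lower in si-4c had a few counts or none there. Of the genes tested, 1051 had no count in any si-4c library, and 776 of these were called lower. Only 21 had no count in any si-2c library, and 5 of these were called higher. Genes with any count numbered 22105 to 23279 in the si-2c libraries and 18083 to 18231 in the si-4c libraries, at similar totals.

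The directions also differed in the level of the genes. Over the 6 si libraries, the genes with a mean of at least 1000 CPM numbered 107, of which 15 (14%) were called higher and 0 lower. Between 100 and 1000 CPM, 56 of 1483 (3.78%) were higher and 19 (1.28%) lower. Between 10 and 100 CPM, 93 of 4458 (2.09%) were higher and 180 (4.04%) lower. Between 1 and 10 CPM, 84 of 5332 (1.58%) were higher and 753 (14.1%) lower. These counts show the balance turning from higher to lower calls as the level falls. Below 1 CPM, 16 of 6615 (0.242%) were higher and 1184 (17.9%) lower. The median log2 difference went from -0.98 in the lowest class to 0.43 in the highest. The class of a gene was set by a mean over both titles, so a gene with hardly any counts in one title also falls into a lower class. Counted in reads, the genes called higher took 9.35% to 10.2% of the counts of si-2c and 17.4% to 18.3% of those of si-4c. The genes called lower took 2.28% to 2.33% and 0.311% to 0.322%. These shares follow from the choice of the genes and are given as a description. The median level of the called lower genes was 1.44 CPM in si-2c against 0.0800 CPM in si-4c, and that of the called higher genes 14.7 and 33.6 CPM. In the control libraries the same genes had medians of 0.185 CPM (con-2c) and 1.89 CPM (con-4c) for the lower set and 30.7 and 13.5 CPM for the higher set.

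**Figure D2:**
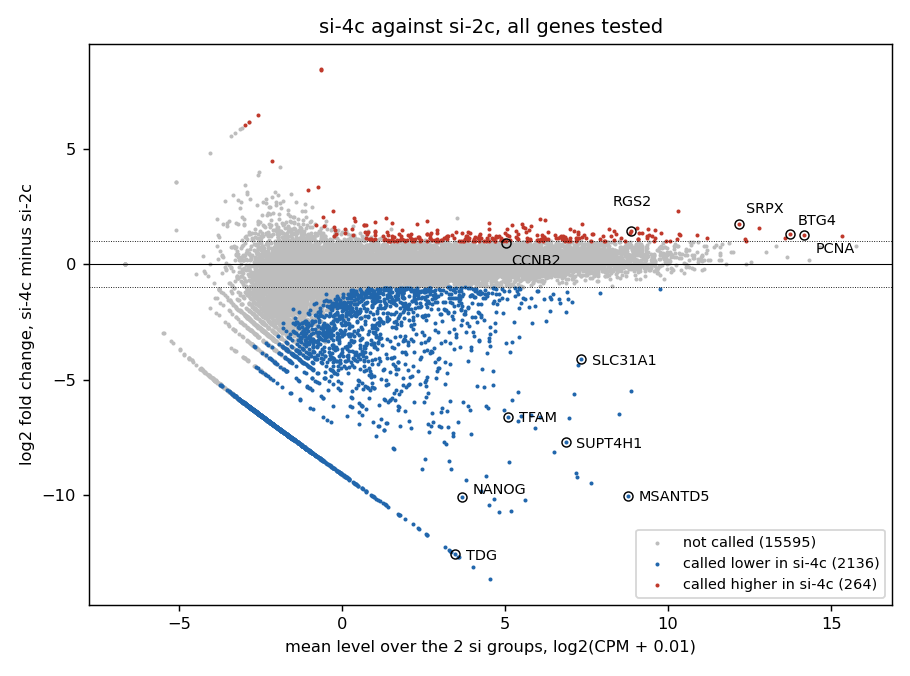
Log2 fold change of si-4c minus si-2c (vertical axis) against the mean level over the 6 si libraries (horizontal axis, CPM on a log axis), 1 point a gene, with called genes coloured by direction. Genes called lower (2136) fill the low levels and reach far larger differences than the genes called higher (264), which reach the highest levels.

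**Figure D3:**
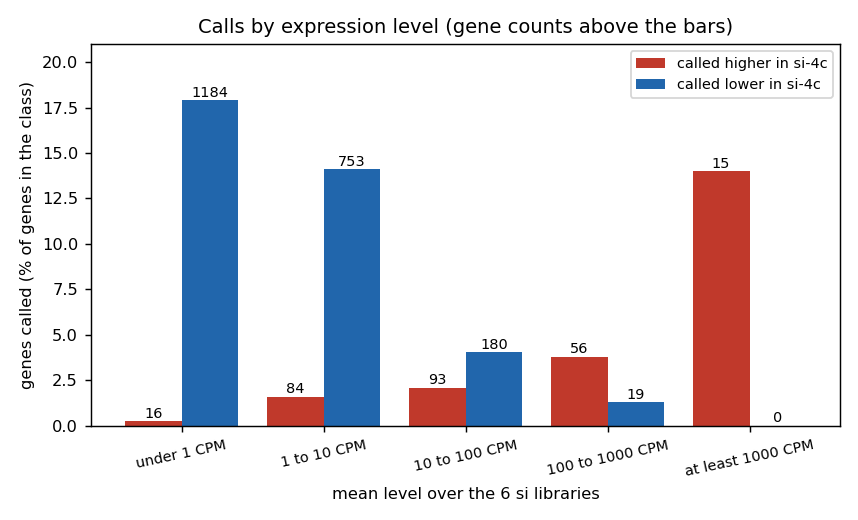
Percentage of tested genes called higher and called lower in si-4c (bars from 0), by class of mean level over the 6 si libraries. The share called lower falls from 17.9% below 1 CPM to 0 at 1000 CPM or more, and the share called higher goes from 0.242% to 14%.

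The 12 genes higher in si-4c with the smallest p were of varied function. RGS2 (ENSSSCG00000037241, chr10:936836-940083), which speeds the turning off of G protein signals, had 243, 248 and 259.5 CPM in si-2c against 688, 669 and 684 CPM in si-4c (log2 difference 1.44, SE 0.07, edgeR adjusted p 1.94e-10). The replicate libraries of RGS2 lay close together, and the titles were far apart. DYNC2LI1 (ENSSSCG00000038383, chr3:96656099-96703282), a light intermediate chain of the dynein that moves cargo within cilia, had 371, 402 and 500.2 CPM in si-2c against 2222, 2075 and 1997 CPM in si-4c (log2 difference 2.31, SE 0.12, edgeR adjusted p 2.57e-10). SEPTIN10 (ENSSSCG00000023050), a septin of the cytoskeleton, had 30.2, 27.2 and 25.3 CPM in si-2c against 107, 108 and 106 CPM in si-4c (log2 difference 1.96, SE 0.09, edgeR adjusted p 7.29e-11). Both were higher in each si-4c library than in any si-2c library. DEPDC7 (ENSSSCG00000042341, chr2:27909282-27928859) had 169, 167 and 185 CPM in si-2c against 463, 486 and 467 CPM in si-4c (log2 difference 1.44, SE 0.08, edgeR adjusted p 4.81e-10). RPAP3 (ENSSSCG00000021166, chr5:77968171-78066252), a co-chaperone in the assembly of RNA polymerase, had 241, 240.2 and 215 CPM in si-2c against 518, 515 and 518 CPM in si-4c (log2 difference 1.15, SE 0.08, edgeR adjusted p 1.07e-08). The RPAP3 values of si-4c were nearly identical to each other, and its change was 0.77, below the fold threshold, under library totals.

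Others of the 12 follow. MRPS31 (ENSSSCG00000009372, chr11:15450698-15472320), a protein of the small mitochondrial ribosome subunit, had 62.1, 69.9 and 66.2 CPM in si-2c against 188, 195 and 190.2 CPM in si-4c (log2 difference 1.53, SE 0.09, edgeR adjusted p 9.82e-10). MOCS2 (ENSSSCG00000016888, chr16:32427783-32462362), a subunit of the enzyme that makes molybdopterin, had 24.8, 27.8 and 27.2 CPM in si-2c against 90.6, 82.8 and 80.1 CPM in si-4c (log2 difference 1.67, SE 0.10, edgeR adjusted p 1.30e-09). PPA1 (ENSSSCG00000010261, chr14:73132368-73167688), a pyrophosphatase, had 22.4, 20.6 and 20.2 CPM in si-2c against 79.2, 67.9 and 64.5 CPM in si-4c (log2 difference 1.74, SE 0.11, edgeR adjusted p 3.97e-09). These genes were about 3 times as high in si-4c, with no overlap of libraries. PSMB1 (ENSSSCG00000027257, chr1:23827-40033), a subunit of the proteasome core, had 75.2, 80.0 and 67.3 CPM in si-2c against 222, 193 and 187 CPM in si-4c (log2 difference 1.44, SE 0.09, edgeR adjusted p 5.54e-09). TYMS (ENSSSCG00000040678, chr6:105642730-105660279), which makes thymidylate for DNA synthesis, had 98.7, 94.1 and 107 CPM in si-2c against 236, 266 and 234 CPM in si-4c (log2 difference 1.29, SE 0.09, edgeR adjusted p 1.41e-08). SRPX (ENSSSCG00000012234, chrX:34075577-34198462), a sushi-repeat protein, had 2146, 2462 and 1825 CPM in si-2c against 7712, 7022 and 6709 CPM in si-4c (log2 difference 1.74, SE 0.11, edgeR adjusted p 2.32e-09). SRPX was also among the 6 called genes with a symbol and the largest rise in CPM. TYMS alone of these fell below the fold threshold under library totals (0.91).

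A ranking by absolute change picks abundant transcripts by its rule. The called genes with a symbol and the largest rises in CPM included BTG4 and H1-8, known from the oocyte. Larger rises of genes below the fold threshold, such as that of DNMT1 given further on, were not ranked. PCNA (ENSSSCG00000056538, chr17:14137746-14142584), the clamp that holds DNA polymerase on its template, had 9677, 11314 and 11501 CPM in si-2c against 28338, 25769.6 and 24742 CPM in si-4c (log2 difference 1.28, SE 0.11, edgeR adjusted p 1.80e-07). BTG4 (ENSSSCG00000015020, chr9:39253116-39281327), which brings the CCR4-NOT deadenylase to maternal mRNA, had 7835, 8874 and 6982 CPM in si-2c against 20921, 19306 and 18786 CPM in si-4c (log2 difference 1.32, SE 0.11, edgeR adjusted p 9.37e-08). ACCSL (ENSSSCG00000057793, chr2:18271066-18431580) had 3377, 3387 and 3353 CPM in si-2c against 6929, 7609 and 6832 CPM in si-4c (log2 difference 1.08, SE 0.08, edgeR adjusted p 3.62e-08). All were at least 2-fold higher in si-4c, without overlap. UBB (ENSSSCG00000018033, chr12:59171258-59172841), a gene for polyubiquitin, had 7734, 9574 and 5788 CPM in si-2c against 18419, 16596 and 15976 CPM in si-4c (log2 difference 1.14, SE 0.14, edgeR adjusted p 8.97e-06). H1-8 (ENSSSCG00000011591), the linker histone of the oocyte, had 1650.3, 1688 and 1005 CPM in si-2c against 3222, 3322 and 3135 CPM in si-4c (log2 difference 1.16, SE 0.14, edgeR adjusted p 7.57e-06). For both, si-2c replicate 3 was the lowest library, and without it their log2 changes were 0.97 and 0.95, below the fold threshold. Under library totals the changes of PCNA, BTG4, ACCSL, UBB and H1-8 were 0.90, 0.94, 0.70, 0.77 and 0.78, all positive and all below that threshold. OOEP (ENSSSCG00000004285, chr1:53006898-53007877), of the subcortical maternal complex of the egg, had 436, 487 and 397 CPM in si-2c against 1071, 992 and 1017 CPM in si-4c (log2 difference 1.22, SE 0.08, edgeR adjusted p 8.72e-09), and it had 0.84 under library totals.

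**Figure D4:**
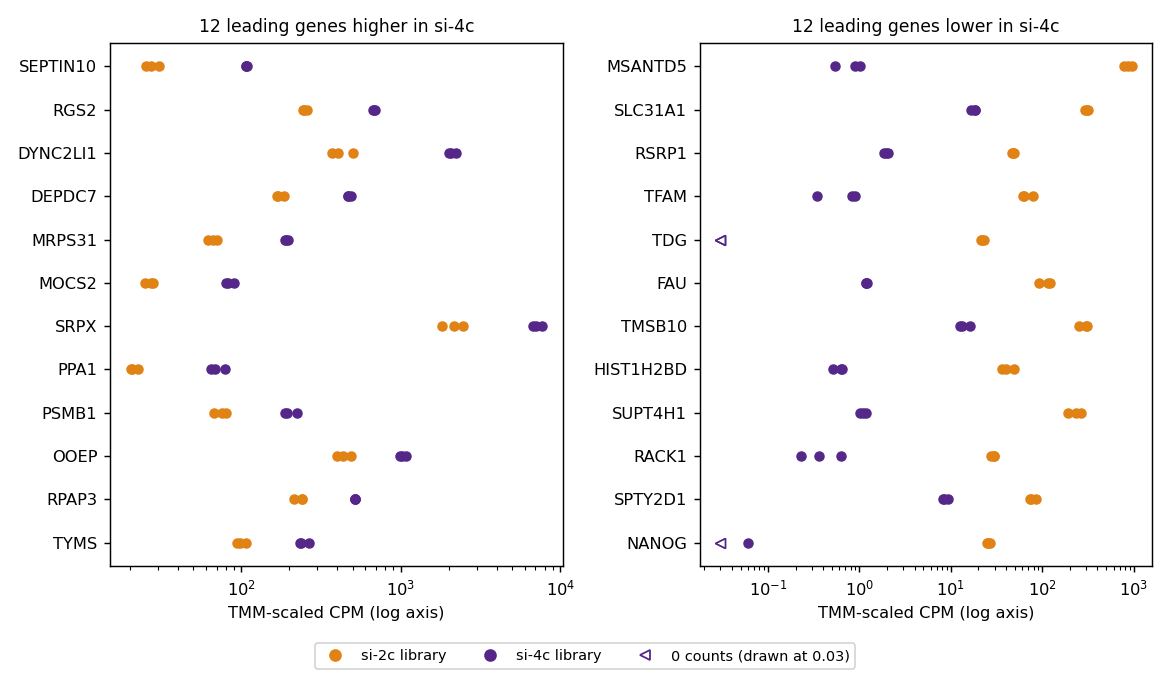
TMM-scaled CPM (horizontal log axis) in each si-2c and si-4c library of the 12 genes with the smallest p in each direction. The libraries of the titles are apart for all 24 genes, by a few fold on the left and by up to 3 orders of magnitude on the right, where open triangles drawn at 0.03 stand for libraries with no count.

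The 12 genes lower in si-4c with the smallest p changed far more. MSANTD5 (ENSSSCG00000042891) had 775, 952 and 866 CPM in si-2c against 0.90, 1.01 and 0.538 CPM in si-4c (log2 difference -10.04, SE 0.22, edgeR adjusted p 3.57e-15). It was among the abundant transcripts of si-2c and nearly absent from si-4c. SLC31A1 (ENSSSCG00000034278, chr1:253868389-253893135), the copper importer of the plasma membrane, had 292, 311 and 314 CPM in si-2c against 18.3, 18.2 and 16.5 CPM in si-4c (log2 difference -4.11, SE 0.10, edgeR adjusted p 3.30e-14). RSRP1 (ENSSSCG00000034449, chr6:82850947-82861578), an arginine- and serine-rich protein, had 49.1, 47 and 47.8 CPM in si-2c against 2.04, 1.85 and 1.97 CPM in si-4c (log2 difference -4.61, SE 0.13, edgeR adjusted p 1.87e-13). SLC31A1 and RSRP1 had replicate libraries within a narrow range, while those of MSANTD5 in si-4c went from 0.538 to 1.01 CPM. Each of the 3 genes had a gap of more than 10-fold between titles. TFAM (ENSSSCG00000040185, chr14:92261713-92279731), which packages and transcribes mitochondrial DNA, had 61.1, 63 and 78.6 CPM in si-2c against 0.90, 0.347 and 0.836 CPM in si-4c (log2 difference -6.60, SE 0.19, edgeR adjusted p 2.10e-13). SUPT4H1 (ENSSSCG00000034752, chr12:34622775-34629681), a subunit of the elongation factor DSIF of RNA polymerase II, had 235, 265 and 191 CPM in si-2c against 1.02, 1.1 and 1.16 CPM in si-4c (log2 difference -7.71, SE 0.25, edgeR adjusted p 6.68e-13). TMSB10 (ENSSSCG00000008245, chr3:59776236-59777252), which binds actin monomers, had 302, 304 and 250.1 CPM in si-2c against 16, 12.7 and 13.3 CPM in si-4c (log2 difference -4.35, SE 0.14, edgeR adjusted p 5.87e-13). TFAM and SUPT4H1 were near 1 CPM in si-4c, where TMSB10 kept a measurable level.

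SPTY2D1 (ENSSSCG00000013361, chr2:40581816-40604040), a histone chaperone, had 74.2, 72.6 and 85 CPM in si-2c against 8.16, 8.44 and 9.23 CPM in si-4c (log2 difference -3.17, SE 0.11, edgeR adjusted p 1.83e-12). FAU (ENSSSCG00000027057, chr2:7070903-7072811), which encodes a ribosomal protein fused to a ubiquitin-like part, had 115, 122 and 92.5 CPM in si-2c against 1.17, 1.19 and 1.19 CPM in si-4c (log2 difference -6.53, SE 0.21, edgeR adjusted p 4.74e-13). RACK1 (ENSSSCG00000029724, chr2:57280192-57284846), a scaffold on the small ribosomal subunit, had 29.9, 27.3 and 29.4 CPM in si-2c against 0.36, 0.231 and 0.627 CPM in si-4c (log2 difference -6.15, SE 0.22, edgeR adjusted p 1.61e-12). In each the titles were separate in every library. HIST1H2BD (ENSSSCG00000021411, chr7:20821090-20829491), a gene of histone H2B, had 36, 49 and 40.0 CPM in si-2c against 0.63, 0.636 and 0.508 CPM in si-4c (log2 difference -6.13, SE 0.20, edgeR adjusted p 6.24e-13). FAU, RACK1 and HIST1H2BD have near-identical copies or pseudogenes, and how reads that match several genes were counted was not stated, so their levels are uncertain. By absolute change, the 6 called genes with a symbol that fell most in CPM included CKS2 and RSRC2. CKS2 (ENSSSCG00000021161, chr14:904762-910292), the small subunit that binds CDK1, had 1158, 1266 and 1106 CPM in si-2c against 628, 503 and 547 CPM in si-4c (log2 difference -1.07, SE 0.09, edgeR adjusted p 1.23e-07). RSRC2 (ENSSSCG00000009791, chr14:30242063-30261166) had 358, 361 and 297 CPM in si-2c against 149, 131 and 152 CPM in si-4c (log2 difference -1.24, SE 0.09, edgeR adjusted p 1.22e-08). Both were more than 2-fold lower and stayed expressed in every si-4c library.

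NANOG (ENSSSCG00000040403), the pluripotency factor, stood at the border of detection in si-4c. It had 25.4, 26.7 and 24.9 CPM in si-2c against 0, 0 and 0.0597 CPM in si-4c (log2 difference -10.10, SE 0.30, edgeR adjusted p 2.71e-12). In counts, 3201 were in the 3 si-2c libraries together and 2 in the 3 si-4c libraries, a ratio of 1299 with a 95% counting interval from 359 to 10727. Both si-4c counts were in replicate 3, without which si-4c was at 0 and the fitted log2 difference moved from -10.10 to -12.80. TDG (ENSSSCG00000000847, chr5:80473233-80492295), a glycosylase that removes bases in DNA demethylation, had 868, 814 and 1075 counts in si-2c against 0 in each si-4c library. Against the floor of 3 counts a library, which is 0.0888 CPM in si-4c, TDG was at least 248-fold lower. On the same floor, the tight junction gene CLDN8 (ENSSSCG00000012030, chr13:193563314-193564090) was at least 267-fold lower, with 835, 801 and 1365 counts in si-2c. The prostaglandin E synthase gene PTGES (ENSSSCG00000005688, chr1:269911785-269924481) was at least 137-fold lower and ANXA1 (ENSSSCG00000005267, chr1:226414200-226431963), a phospholipid-binding annexin, at least 133-fold lower. SI (ENSSSCG00000011735, chr13:104296281-104379558), the sucrase-isomaltase of the gut, had 1452 counts in si-2c and 3 in si-4c, a ratio of 393 (95% counting interval 134 to 1906). All 3 were in si-4c replicate 3, without which the fitted log2 difference of SI moved from -8.44 to -11.64. Intervals and floors cover counting error only, since amplified reads are not independent molecules. In con-2c, NANOG and ANXA1 were likewise listed at 0 CPM, and in con-4c they had 63.3 and 18.2 CPM.

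The reverse pattern was rare. At most 3 counts in every si-2c library and more in si-4c were found for 28 genes, 6 of them called higher, where 1354 genes had the opposite pattern and 891 of them were called lower. ZNF550 (ENSSSCG00000052041), a zinc finger gene, had 0 counts in each si-2c library and 23, 50 and 55 in si-4c (log2 difference 8.45, SE 2.03, edgeR adjusted p 0.00563), at least 17.3-fold on a floor of 0.0726 CPM in si-2c. DIO2 (ENSSSCG00000040638, chr7:103096414-103110749), a deiodinase that activates thyroid hormone, had 0 counts in si-2c against 68, 60 and 0 in si-4c (edgeR adjusted p 0.0188). The DIO2 signal was in 2 of the 3 si-4c libraries, and its adjusted p was 0.0548, 0.0565 and 0.0505 without si-2c replicate 1, 2 or 3. NUGGC (ENSSSCG00000009673, chr14:11775684-11826162), a nuclear GTPase, had 0 counts in si-2c against 8, 19 and 5 in si-4c (edgeR adjusted p 0.0367), and it lost the call without any single library of si-2c or si-4c (adjusted p 0.0535 to 0.0999) and without con-4c replicate 1 or 3 (0.0548 and 0.0515). SAPCD1, ADAM20 and GDPGP1 had the same pattern with 5 to 18 counts in their positive si-4c libraries and did not pass the test.

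The genes were also described by lists with a known function, counted as called higher or lower among the tested members and set beside the 1.47% and 11.9% over all genes. Fewer genes with a symbol were called lower (1004 of 12052, 8.33%) than genes without one (1132 of 5943, 19.0%), and 1.73% of the genes with a symbol and 0.925% of those without were called higher. The lists hold genes with symbols, so the first of these shares is the nearer background. Values with ± are the mean and SD of 3 libraries. A list is described by its count and in some cases its median log2 difference, and positions are also given relative to the median of all genes, which was -0.13. The median of genes with a symbol was -0.03 (-0.41 under library totals), so a list stood lower against it than against all genes. Medians also differed by level, at 0.18 for 100 to 1000 CPM and 0.43 for at least 1000 CPM.

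Most calls among genes known from the oocyte were higher in si-4c. Of 36 oocyte and maternal factors, 5 were called higher (RGS2, BTG4, OOEP, OOSP2 and H1-8) and 1 lower, and the median was 0.29, 0.42 above that of all genes, which under library totals became -0.09 and again 0.42 above, with 1 called higher. OOSP2, a secreted oocyte protein, had 414, 501 and 563 CPM in si-2c against 1311, 1262 and 1203 CPM in si-4c (log2 difference 1.35, SE 0.12, edgeR adjusted p 4.06e-07). The lower member was ZFP57, a zinc finger factor of imprinted regions, with 8, 12 and 26 counts in si-2c against 0 in si-4c. Maternal genes that were not called included the growth factor genes GDF9 and BMP15 and the zona genes ZP3 and ZP4. GDF9 (ENSSSCG00000014288, chr2:135181494-135184451) had 411, 413 and 564 CPM in si-2c against 632, 663 and 643 CPM in si-4c (log2 difference 0.48, SE 0.10, edgeR adjusted p 0.00187). BMP15 (ENSSSCG00000012310, chrX:44613122-44620575) had 1303, 1166 and 1213 CPM in si-2c against 1004, 1075 and 1058 CPM in si-4c (log2 difference -0.23, SE 0.07, edgeR adjusted p 0.0212). Their differences were small and of opposite sign. Over the alternatives named in the processing section, GDF9 lay between 0.10 and 0.65 and BMP15 between -0.61 and -0.18. ZP3 (ENSSSCG00000007691, chr3:9934760-9944924) had 31.9, 33.1 and 20.8 CPM in si-2c against 35.1, 37.5 and 38.8 CPM in si-4c (log2 difference 0.38, SE 0.15, edgeR adjusted p 0.0641), and ZP4 had 425, 472 and 549.9 CPM in si-2c against 813, 869.9 and 753 CPM in si-4c (log2 difference 0.75, SE 0.12, edgeR adjusted p 9.87e-05). The log2 difference of ZP3 lay between 0.005 and 0.50 over the same alternatives. NLRP9, KPNA7 and WEE2, further abundant oocyte genes, were not called, with log2 changes of -0.36, 0.20 and 0.17. The summed level of the list was 17727 to 19727 CPM in si-2c against 33657 to 36103 CPM in si-4c, most of it from a few abundant genes.

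All calls among genes of genome activation and pluripotency were lower in si-4c. Of 31 tested, 13 (41.9%) were called lower and 0 higher, and the median of -0.80 (-1.18 under library totals) was below that of all genes under both scalings. EIF1AX (ENSSSCG00000032223, chrX:16429625-16449581), a translation initiation factor gene used as a marker of activation in the pig, had 93.9, 89.7 and 84.6 CPM in si-2c against 40.0, 38.6 and 41.7 CPM in si-4c (log2 difference -1.16, SE 0.09, edgeR adjusted p 4.26e-08). DPPA2 (ENSSSCG00000031524, chr13:150186833-150200612), a chromatin factor that opens early embryonic genes, had 81.6, 93.2 and 87.7 CPM in si-2c against 49.2, 35 and 35.1 CPM in si-4c (log2 difference -1.14, SE 0.12, edgeR adjusted p 1.15e-06). Both were more than 2-fold lower in si-4c and kept a level near 40 CPM. KLF17, a Krüppel-like factor of the early embryo, had 22.2, 16.8 and 19.2 CPM in si-2c against 0, 0 and 0.149 CPM in si-4c (log2 difference -8.52, SE 0.47, edgeR adjusted p 6.21e-10). KLF4, its relative, had 20.4, 14.3 and 16.4 CPM in si-2c against 5.49, 5.7 and 7.11 CPM in si-4c (log2 difference -1.48, SE 0.16, edgeR adjusted p 2.98e-06). NANOG, given above, was also called lower. The other members called lower were MYC, DPRX, NR5A2, KDM5B, GATA3, TBX3, TFAP2C and SOX2, all below 7 CPM on average in si-2c. DPPA5 went the other way without a call, from 2310.3 ± 341 CPM to 3873 ± 149 CPM (log2 difference 0.75, SE 0.10, edgeR adjusted p 3.03e-05). OTX2 also stood higher in si-4c without a call, 461 ± 85.7 CPM to 705 ± 64.3 CPM (log2 difference 0.61, SE 0.11, edgeR adjusted p 5.04e-04). The summed level of a list is therefore no guide here, since abundant DPPA5 dominates it.

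RNA synthesis and processing genes were mixed. Of 27 RNA polymerase subunits, 1 was called lower, POLR2B, the second largest subunit of RNA polymerase II, with 26.7, 30.8 and 30.1 CPM in si-2c against 7.41, 7.87 and 5.88 CPM in si-4c (log2 difference -2.05, SE 0.13, edgeR adjusted p 4.55e-09). POLR2C of the same enzyme went from 181 ± 9.26 CPM to 289 ± 16.7 CPM and was not called. Among 74 general transcription factors and Mediator subunits, 4 were higher (5.41%) and 7 lower (9.46%), and 1 and 10 under library totals. GTF2B, which positions the polymerase, rose from 82.7 ± 9.22 CPM to 218 ± 12.4 CPM (log2 difference 1.40, SE 0.11, edgeR adjusted p 9.90e-08). TAF9, a subunit of TFIID, rose from 184 ± 20.4 CPM to 429.8 ± 30.2 CPM (log2 difference 1.22, SE 0.12, edgeR adjusted p 7.30e-07). GTF2F1, a subunit of TFIIF, fell from 33.2 ± 4.67 CPM to 3.3 ± 0.871 CPM (log2 difference -3.33, SE 0.20, edgeR adjusted p 1.53e-09), and the Mediator subunit MED31 fell from 40.0 ± 3.12 CPM to 6.02 ± 1.26 CPM (log2 difference -2.73, SE 0.13, edgeR adjusted p 1.09e-10). This list thus held members called in opposite directions. Of 74 splicing factors, 3 were higher (4.05%) and 12 lower (16.2%), and 0 and 15 under library totals. PRPF19 fell from 158 ± 7.01 CPM to 49.5 ± 2.18 CPM (log2 difference -1.68, SE 0.07, edgeR adjusted p 3.77e-11) and the helicase DHX15 from 45.6 ± 8.42 CPM to 6.21 ± 1.23 CPM (log2 difference -2.88, SE 0.16, edgeR adjusted p 6.26e-10), while MAGOH, of the exon junction complex, rose from 398 ± 34.2 CPM to 967 ± 91.5 CPM (log2 difference 1.28, SE 0.10, edgeR adjusted p 3.84e-08). The medians of these 3 lists, -0.05, 0.04 and -0.08, were within 0.2 of that of all genes, and under library totals all were negative (-0.43, -0.35 and -0.46).

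The ribosome was among the lists with the highest share of lower calls. Of 66 cytosolic ribosomal protein genes, 26 (39.4%) were called lower and 1 higher, with a median of -0.72 (-1.10 under library totals, where 34 were lower and 0 higher). RPS13 fell from 22.4 ± 2.27 CPM to 1.89 ± 0.461 CPM (log2 difference -3.57, SE 0.17, edgeR adjusted p 1.09e-10), RPS19 from 14.4 ± 0.294 CPM to 0.842 ± 0.359 CPM (log2 difference -4.10, SE 0.20, edgeR adjusted p 1.66e-10) and RPS16 from 27.8 ± 2.36 CPM to 5.73 ± 0.46 CPM (log2 difference -2.27, SE 0.12, edgeR adjusted p 3.91e-10). RPS24 was the exception, with 708, 720.0 and 529 CPM in si-2c against 1291, 1286 and 1369 CPM in si-4c (log2 difference 1.01, SE 0.10, edgeR adjusted p 7.58e-07), just past the fold threshold and not called under library totals or by DESeq2. RPLP0 and RPL5 had 218 ± 39.1 CPM to 169 ± 8.59 CPM and 166 ± 3.15 CPM to 239 ± 28.3 CPM and were not called. Ribosomal protein genes have many near-identical pseudogenes, which makes their counts uncertain as said above. The 69 mitochondrial ribosomal proteins had 4 higher and 4 lower (5.8% each way), and 1 and 5 under library totals. Their median of 0.19 turned to -0.19 under library totals, about 0.32 above that of all genes both times. Of 91 ribosome biogenesis genes, 4 were higher (4.4%) and 12 lower (13.2%), and 0 and 16 under library totals. EMG1, a methyltransferase for ribosomal RNA, fell from 40.5 ± 6.23 CPM to 2.79 ± 0.268 CPM (log2 difference -3.86, SE 0.14, edgeR adjusted p 2.71e-12), and the nucleolar methyltransferase FBL from 12.2 ± 1.43 CPM to 0.851 ± 0.453 CPM (log2 difference -3.84, SE 0.25, edgeR adjusted p 5.39e-09). UTP23, of the small subunit processome, rose from 475 ± 64.7 CPM to 1062 ± 105 CPM (log2 difference 1.16, SE 0.10, edgeR adjusted p 1.11e-07). Of 44 translation factors, 8 were lower (18.2%) and 1 higher (2.27%), and 8 and 0 under library totals. EEF1B2 fell from 28.6 ± 0.692 CPM to 13.1 ± 1.29 CPM (log2 difference -1.13, SE 0.11, edgeR adjusted p 4.92e-07) and the termination factor ETF1 from 18.2 ± 3.25 CPM to 6.5 ± 0.787 CPM (log2 difference -1.48, SE 0.15, edgeR adjusted p 9.76e-07), while EIF2S1, the alpha subunit of eIF2, rose from 23.3 ± 3.83 CPM to 48.2 ± 1.63 CPM (log2 difference 1.05, SE 0.12, edgeR adjusted p 4.65e-06).

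**Figure D5:**
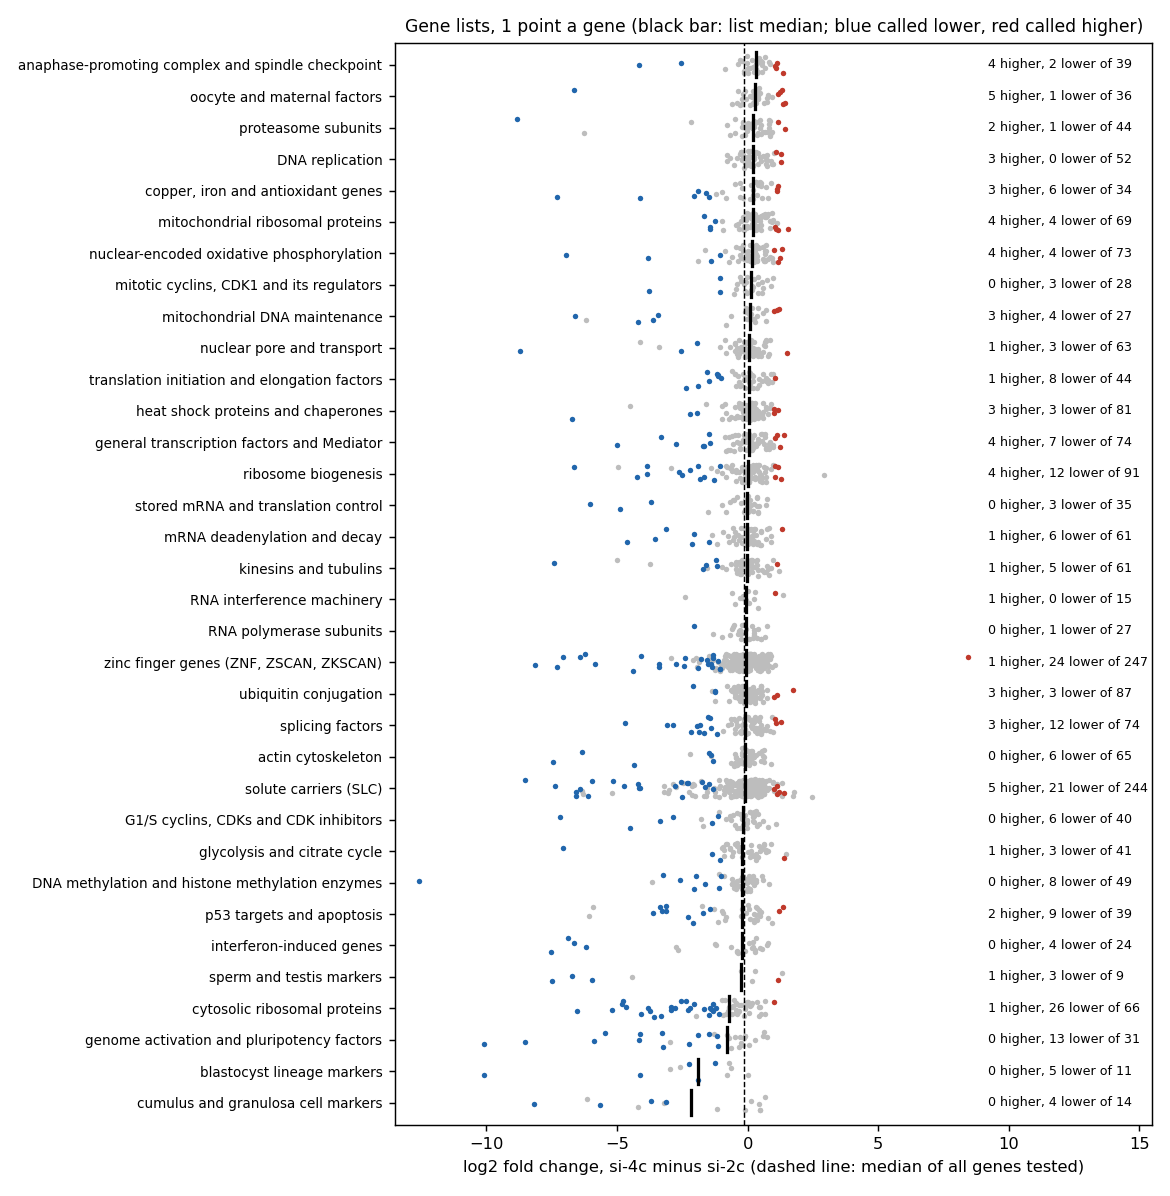
Log2 fold change of si-4c minus si-2c (horizontal axis) of every tested member of 34 gene lists (1 point a gene; red called higher, blue called lower, grey not called), with the list median as a black bar and the median of all genes as a dashed line. Cumulus and granulosa markers, blastocyst lineage genes, genome activation genes and cytosolic ribosomal proteins have medians well to the left of that line (-2.15, -1.88, -0.80 and -0.72). Fitted values beyond about 5 often belong to genes with few or no counts in one title, but FAU (-6.53) had 39, 41 and 40 counts in the si-4c libraries.

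Genes that handle stored mRNA were called at shares near the 1.73% higher and 8.33% lower of genes with a symbol. Of 61 genes of deadenylation and decay, 1 was higher (BTG4, 1.64%) and 6 lower (9.84%), and of 35 genes of mRNA storage and translational control, 0 were higher and 3 lower (8.57%). The exosome subunits EXOSC10, EXOSC1 and EXOSC3 fell, EXOSC10 from 42.6 ± 3.31 CPM to 3.66 ± 0.534 CPM (log2 difference -3.54, SE 0.14, edgeR adjusted p 6.89e-12) and EXOSC1 from 108 ± 5.83 CPM to 38.3 ± 3.14 CPM (log2 difference -1.49, SE 0.09, edgeR adjusted p 1.09e-09). BTG3, a relative of BTG4, fell from 14.4 ± 1.45 CPM to 0.583 ± 0.302 CPM (log2 difference -4.62, SE 0.30, edgeR adjusted p 6.43e-09), so that these relatives were called in opposite directions. CNOT9 of the deadenylase complex fell from 15.4 ± 3.35 CPM to 3.55 ± 0.251 CPM (log2 difference -2.12, SE 0.17, edgeR adjusted p 7.40e-08), and CNOT7, its catalytic subunit, went from 733 ± 7.12 CPM to 810.3 ± 70.4 CPM without a call. TENT5A, a poly(A) polymerase, fell from 11.7 ± 1.26 CPM to 0.394 ± 0.213 CPM (log2 difference -4.88, SE 0.37, edgeR adjusted p 3.92e-08), and the poly(A)-binding protein gene PABPC1 from 11.3 ± 0.39 CPM to 0.865 ± 0.311 CPM (log2 difference -3.70, SE 0.37, edgeR adjusted p 9.95e-07). CPEB1, which controls cytoplasmic polyadenylation in oocytes, had 169 ± 19.4 CPM to 178 ± 8.7 CPM and was not called.

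Cell cycle genes were called in both directions, but the lists of cyclins held no higher call. The shares lower were 10.7% (mitotic), 15% (G1/S), 5.13% (anaphase and checkpoint) and 0% (replication), beside 8.33% of genes with a symbol. The shares higher were 10.3% (anaphase and checkpoint) and 5.77% (replication), beside 1.73%. Of 28 mitotic cyclins, CDK1 and regulators, 0 were called higher and 3 lower. These were CKS2 (above), the kinase gene WEE1, which fell from 3.03 ± 0.357 CPM to 0.215 ± 0.194 CPM (log2 difference -3.79, SE 0.75, edgeR adjusted p 9.78e-04), and the transcription factor gene FOXM1, which fell from 5.75 ± 1.52 CPM to 2.73 ± 0.577 CPM (log2 difference -1.07, SE 0.26, edgeR adjusted p 0.00483). CKS1B and FBXO5, an inhibitor of the anaphase-promoting complex, were higher without a call, CKS1B from 1533 ± 54.7 CPM to 2238 ± 124 CPM and FBXO5 from 280.3 ± 1.43 CPM to 465 ± 8.97 CPM. Of 40 G1/S cyclins, CDKs and inhibitors, 6 were lower and 0 higher, among them CCNG2, from 15 ± 3.39 CPM to 0.663 ± 0.267 CPM (log2 difference -4.49, SE 0.33, edgeR adjusted p 2.72e-08), and E2F7, from 8.73 ± 0.716 CPM to 3.39 ± 0.399 CPM (log2 difference -1.36, SE 0.17, edgeR adjusted p 1.51e-05). Of 39 genes of the anaphase-promoting complex and the spindle checkpoint, 4 were higher and 2 lower, and the median of 0.33 became -0.05 under library totals, 0.46 above that of all genes both times, with no member called higher. MAD2L1, which holds back the complex until chromosomes attach, had 263, 306 and 351 CPM in si-2c against 819.9, 809.7 and 735 CPM in si-4c (log2 difference 1.36, SE 0.13, edgeR adjusted p 6.78e-07). BUB1, a checkpoint kinase, rose from 34.4 ± 3.38 CPM to 70.7 ± 5.27 CPM (log2 difference 1.04, SE 0.11, edgeR adjusted p 1.42e-06), NUF2 of the outer kinetochore from 74.4 ± 12 CPM to 160.0 ± 4.02 CPM (log2 difference 1.10, SE 0.12, edgeR adjusted p 1.93e-06) and ANAPC10 from 9.29 ± 0.361 CPM to 20.3 ± 1.52 CPM (log2 difference 1.13, SE 0.12, edgeR adjusted p 2.16e-06). CDC23 and MAD1L1, of the same list, fell, from 4.03 ± 0.853 CPM to 0.683 ± 0.224 CPM and from 3.6 ± 0.98 CPM to 0.199 ± 0.183 CPM. Of 52 DNA replication genes, 3 were higher (PCNA, TYMS and ORC5) and 0 lower, with a median of 0.21 that became -0.18 under library totals, where 0 were called higher and 3 lower. ORC5 of the origin recognition complex rose from 68.8 ± 15.3 CPM to 146 ± 12.4 CPM (log2 difference 1.08, SE 0.14, edgeR adjusted p 1.31e-05), and GMNN, an inhibitor of origin licensing, went from 189.6 ± 13.7 CPM to 376 ± 24.8 CPM, just short of the fold threshold.

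Cytoskeletal genes were called lower at shares near the 8.33% of genes with a symbol. Of 65 actin cytoskeleton genes, 6 were lower (9.23%) and 0 higher. TPM3, a tropomyosin, fell from 29.8 ± 2.37 CPM to 0.366 ± 0.138 CPM (log2 difference -6.34, SE 0.26, edgeR adjusted p 1.52e-11), and TMSB10 fell as described, while TMSB4X, its abundant relative, had 871 ± 128 CPM to 829 ± 55.6 CPM and was not called (log2 difference -0.07, SE 0.10, edgeR adjusted p 0.646). Of 61 kinesins and tubulins, 1 was higher (1.64%) and 5 lower (8.20%), and 0 and 8 under library totals. TUBB fell from 48 ± 6.26 CPM to 21.4 ± 1.26 CPM (log2 difference -1.16, SE 0.12, edgeR adjusted p 1.76e-06), and TUBE1, the epsilon-tubulin of centrioles, rose from 62.3 ± 15.3 CPM to 136 ± 4.58 CPM (log2 difference 1.12, SE 0.13, edgeR adjusted p 6.21e-06).

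Genes of chromatin and of apoptosis were called mainly lower, as were 89.0% of all calls. Of 49 enzymes of DNA and histone methylation, 8 were lower (16.3%) and 0 higher. NSD1, a histone H3 lysine methyltransferase, fell from 187 ± 13.1 CPM to 44.5 ± 3.05 CPM (log2 difference -2.07, SE 0.09, edgeR adjusted p 3.73e-11), SETD2, another, from 20.1 ± 4.39 CPM to 5.04 ± 1.15 CPM (log2 difference -1.99, SE 0.17, edgeR adjusted p 1.61e-07), and EED of the Polycomb complex from 7.85 ± 0.652 CPM to 1.29 ± 0.401 CPM (log2 difference -2.61, SE 0.28, edgeR adjusted p 2.42e-06). DNMT1, the maintenance DNA methyltransferase, went from 40198 ± 3945 CPM to 70725 ± 866 CPM without a call (log2 difference 0.82, SE 0.09, edgeR adjusted p 4.19e-06). Of 39 p53 targets and apoptosis genes, 2 were higher (5.13%) and 9 lower (23.1%), and 0 and 11 under library totals. CASP6, a protease of apoptosis, rose from 4.22 ± 0.717 CPM to 10.7 ± 0.984 CPM (log2 difference 1.34, SE 0.25, edgeR adjusted p 5.58e-04). MCL1, which blocks apoptosis, fell from 11.2 ± 1.81 CPM to 1.15 ± 0.379 CPM (log2 difference -3.27, SE 0.31, edgeR adjusted p 5.73e-07), and PMAIP1, which opposes MCL1, fell from 9.33 ± 0.397 CPM to 1.91 ± 0.328 CPM (log2 difference -2.28, SE 0.26, edgeR adjusted p 4.63e-06). Promoters and blockers of apoptosis were thus both among the lower genes.

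Mitochondrial genes outside the ribosome were called both ways. Of 27 genes for mitochondrial DNA maintenance, 3 were higher and 4 lower. The transcription factors TFAM (above), TFB2M, from 2.62 ± 0.251 CPM to 0.138 ± 0.0163 CPM, NRF1, from 18.3 ± 3.89 CPM to 1.69 ± 0.185 CPM (log2 difference -3.43, SE 0.18, edgeR adjusted p 4.58e-10), and the coactivator PPARGC1A, from 2.98 ± 0.128 CPM to 0.236 ± 0.0752 CPM (log2 difference -3.64, SE 0.36, edgeR adjusted p 9.05e-07), fell. POLG2 of the mitochondrial DNA polymerase rose from 18.2 ± 1.92 CPM to 40.1 ± 2.81 CPM (log2 difference 1.14, SE 0.13, edgeR adjusted p 5.12e-06), and TEFM, an elongation factor, from 5.57 ± 0.681 CPM to 12.7 ± 2.83 CPM (log2 difference 1.19, SE 0.18, edgeR adjusted p 7.28e-05). Of 73 nuclear genes of oxidative phosphorylation, 4 were higher (5.48%) and 4 lower (5.48%). NDUFA2 of complex I fell from 66.3 ± 8.08 CPM to 4.72 ± 0.528 CPM (log2 difference -3.81, SE 0.15, edgeR adjusted p 8.15e-12). UQCRB of complex III rose from 16.5 ± 0.946 CPM to 37.2 ± 3.27 CPM (log2 difference 1.17, SE 0.10, edgeR adjusted p 2.52e-07). Of 34 copper, iron and antioxidant genes, 3 were higher (8.82%) and 6 lower (17.6%). NFE2L2, the regulator of the oxidative stress response, rose from 45.4 ± 2.58 CPM to 102 ± 6.82 CPM (log2 difference 1.17, SE 0.08, edgeR adjusted p 1.64e-08). The peroxidase genes PRDX6 and GPX4 fell, PRDX6 from 42.2 ± 4.58 CPM to 10.1 ± 0.412 CPM (log2 difference -2.06, SE 0.11, edgeR adjusted p 6.27e-10) and GPX4 from 7.09 ± 0.867 CPM to 2.32 ± 0.551 CPM (log2 difference -1.61, SE 0.22, edgeR adjusted p 2.42e-05). Under library totals no member of these 3 lists was called higher.

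Protein turnover and transport genes had calls in both directions. Of 44 proteasome subunits, 2 were higher (PSMB1 and PSMA5) and 1 lower, with a median of 0.22 that became -0.17 under library totals, where 1 was higher and 3 lower. PSMA5 rose from 101 ± 10.3 CPM to 228 ± 16.6 CPM (log2 difference 1.18, SE 0.10, edgeR adjusted p 2.20e-07). Of 87 ubiquitin conjugation genes, 3 were higher and 3 lower (3.45% each way), among the former UBB (above), and 1 and 5 under library totals. Of 63 nuclear pore and transport genes, 1 was higher (1.59%) and 3 lower (4.76%), and 1 and 8 under library totals. NUP37 of the outer ring of the pore rose from 152 ± 27.7 CPM to 433 ± 33.2 CPM (log2 difference 1.51, SE 0.13, edgeR adjusted p 2.53e-07), and NXF1, the main exporter of mRNA, fell from 24.1 ± 1.63 CPM to 4.14 ± 0.916 CPM (log2 difference -2.54, SE 0.17, edgeR adjusted p 5.86e-09). Of 244 solute carriers, 5 were higher (2.05%) and 21 lower (8.61%), and 1 and 32 under library totals. Of 247 zinc finger genes of the ZNF, ZSCAN and ZKSCAN names, 1 was higher (ZNF550) and 24 lower (9.72%), a share near the background, and 1 and 36 under library totals. Heat shock genes had 3 higher and 3 lower of 81 (3.7% each way), and 0 and 6 under library totals. Glycolysis and citrate cycle genes completed the lists of this kind, with 1 higher (2.44%) and 3 lower (7.32%) of 41, and 0 and 9 under library totals.

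Responses to injected RNA were looked at through interferon-induced genes and the machinery of RNA interference. Of 24 interferon-induced genes, 0 were higher and 4 lower (16.7%), TLR3, TRIM25, OAS1 and IFI6, and each of these was below 6 CPM in si-2c. TLR3, a receptor for double-stranded RNA, fell from 5.12 ± 1.75 CPM to 0.040 ± 0.0693 CPM (log2 difference -6.89, SE 0.67, edgeR adjusted p 7.03e-07). IFIT5, which binds viral RNA, had 67.4 ± 6.4 CPM to 111 ± 6.64 CPM and was not called. Of 15 genes of RNA interference, 1 was higher, PRKRA, a partner of DICER1, from 3.5 ± 0.616 CPM to 7.3 ± 1.31 CPM (log2 difference 1.06, SE 0.22, edgeR adjusted p 0.00156). Under library totals 0 of these genes were higher and 1 lower. AGO2, the slicing Argonaute, had 58.3 ± 10.5 CPM to 39 ± 3.51 CPM, and it was not called (log2 difference -0.58, SE 0.12, edgeR adjusted p 0.00177). Both titles carried the same injection, so the comparison does not measure a response to the injection.

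Markers of other cells and of later embryos were checked in the same libraries. Of 20 cumulus and granulosa markers in the table, 15 to 17 had a count in the si-2c libraries and 9 to 11 in the si-4c libraries. Their summed level was 200 to 229 CPM in si-2c against 333 to 336 CPM in si-4c, and it was mostly VCAN, with 184 ± 14.2 CPM to 295 ± 4.97 CPM. The median log2 difference of the 14 tested members went the other way, at -2.15 (-1.08 with members at 0 in a title set to the floor of 3 counts a library). FOXL2, CYP11A1 and HAS2 had no count in the si libraries, and FSHR had 2 in si-2c replicate 3 and 17 in si-4c replicate 3. Other members had counts in all 6 si libraries, CYP19A1 from 11 to 25, STAR from 8 to 74 and SERPINE2 from 871 to 1155. Of 14 tested, 4 were called lower, COL3A1, VIM, COL1A1 and AREG, all with means below 2 CPM. Of 18 sperm and testis markers, 12 to 15 had a count in si-2c and 6 to 8 in si-4c, with summed levels of 77.4 to 83.7 and 83.4 to 93.2 CPM, and PGK2 had none. Of 9 tested, 1 was called higher (SPACA3) and 3 lower (HSPA1L, AKAP4 and AKAP3), and HSPA1L, a heat shock protein gene of the testis, fell from 4.54 ± 0.13 CPM to 0.0386 ± 0.0668 CPM (log2 difference -6.73, SE 0.84, edgeR adjusted p 1.15e-05). Blastocyst lineage markers summed to 48.5 to 55.2 CPM in si-2c against 16.9 to 18.4 CPM in si-4c, and 5 of 11 tested were lower (NANOG, GATA3, PDGFRA, TFAP2C and SOX2). GATA4, an endoderm factor, had 13.2 ± 1.19 CPM to 13.3 ± 0.295 CPM and was not called. The part of other cells in the differences above was not tested.

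The stage difference in the si libraries was also set against that in the control libraries, con-4c minus con-2c, by a test of the difference between them. This was done for CCNB2, BTG4, EIF1AX, DPPA2 and the 4 leading genes of each direction (SEPTIN10, RGS2, DYNC2LI1, DEPDC7, MSANTD5, SLC31A1, RSRP1 and TFAM). All 12 had an edgeR adjusted p below 0.05 in that test, beside 45.5% of all genes tested (8182 of 17995). The control levels of BTG4 were 18571 ± 2719 and 7682 ± 462 CPM, those of EIF1AX 33.2 ± 3.66 and 174 ± 7.19 CPM and those of DPPA2 36.8 ± 0.714 and 171 ± 12.5 CPM in con-2c and con-4c. For these genes the control libraries thus differed between titles in the opposite direction to the si libraries. MSANTD5 had 10.6 ± 2.61 and 2349 ± 179 CPM and RGS2 668 ± 51.4 and 194 ± 1.02 CPM in con-2c and con-4c, also opposite to the si libraries, and SEPTIN10 had 90.5 ± 6.73 and 103 ± 7.32 CPM, a small difference. The values of the test are given in the closing section.

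By position, calls were spread over the genome. With 11218 tested genes placed by symbol on RefSeq coordinates of Sscrofa11.1, the share called lower was 5.94% (chromosome 3) to 11.7% (chromosome 8), and the share called higher 0.916% (chromosome 2) to 3.49% (chromosome 4). None of chromosomes 1 to 18 and X, the ones counted, lacked calls in either direction.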

How the data were processed

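The 12 libraries were prepared by SMART-seq from pools of 10 embryos: polyadenylated RNA was primed with oligo(dT), copied to the 5′ end with a template switch, amplified, fragmented by enzyme and sequenced in pairs. The authors deposited raw counts of reads for each Ensembl gene, in whole numbers and without normalization. The processing notes of the submitters name cutadapt 1.9, HISAT2 2.2.1, StringTie 2.1.6, DESeq2, edgeR and the build Sscrofa11.1, with no role or order given. Annotation release, strand and the treatment of reads matching several genes were not given in the sources used here, so antisense and overlapping genes and genes with near-identical copies are uncertain.

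Groups followed the titles. The 29329 genes of the table (15463 with a symbol, 41 symbols on more than 1 gene) were reduced by filterByExpr to 17995. A quasi-likelihood model of edgeR 4.0.16 in R 4.3.3 with 4 group means was fitted to the 12 libraries with TMM factors, and si-4c minus si-2c was tested with Benjamini-Hochberg adjustment over all genes tested. The common dispersion (0.0745) corresponds to a coefficient of variation of 27.3% between libraries. An SE was taken as the size of the log2 fold change over the root of its F statistic. Levels are TMM-scaled CPM, mean ± SD with n = 3. Library totals were 33270517 to 38649571 counts in the si libraries. Replicate pairs of si libraries were further apart than sampling alone allows (chi-square over degrees of freedom 37.8 and 38.7 for the pairs with si-2c replicate 3 and 8.21 to 15.4 for the others), and none was merged. Log2 CPM with a prior count of 2 had r of 0.960 to 0.968 within and 0.918 to 0.920 between si titles. The script was tested on simulated data.

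Genes were named by rule. The 12 with the smallest p in each direction were called, had a unique symbol and a mean of 10 CPM or more in one title, and did not overlap. Added to these were the 6 genes with the largest CPM change in each direction under the same conditions, up to 6 with at most 3 counts in every library of one title, up to 4 called and 4 uncalled members of each list, and CCNB2, BTG4, EIF1AX, DPPA2, CCNB1, CDK1, GDF9, BMP15 and ZP3. The comparison and the lists (35 written, 34 with a tested member) were chosen with earlier results of these data known. Coordinates are those of RefSeq genes of Sscrofa11.1 matched by symbol (11218 of the genes tested). Alternatives were DESeq2 1.42.0, its size factors, library totals, other filters and thresholds, the si libraries alone, a replicate block and the omission of each library. ZSCAN4 was not analysed here. Some members of the lists are not reported here.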

Additional observations from a re-analysis of the deposited data

Results flagged for a closer look

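For 12 genes the difference between titles in the si libraries differed from the difference between titles in the control libraries, by a test of the difference itself (edgeR, adjusted over 17995 genes). Each value is the log2 difference between titles (4c minus 2c) in si libraries from which that in control libraries was subtracted. For CCNB2 the value was 0.88 (SE 0.18, edgeR adjusted p 7.89e-04), and under library totals it was 0.23 with an adjusted p of 0.299, so this one depends on the scaling. BTG4 had 2.59 (adjusted p 4.57e-10) and RGS2 3.23 (1.42e-13), both with higher levels in si-4c than in si-2c and lower levels in con-4c than in con-2c. DYNC2LI1 had 4.54 (1.04e-12) and DEPDC7 2.73 (3.23e-12), with the same pair of directions. SEPTIN10 had 1.78 (4.84e-09), and its control means of 90.5 and 103 CPM in con-2c and con-4c lay near that of si-4c. The con-2c and si-4c means were also near each other for RGS2 (668 and 680 CPM), DYNC2LI1 (2193 and 2098), DEPDC7 (421 and 472) and BTG4 (18571 and 19671). The same held for EIF1AX (33.2 and 40.1 CPM) and DPPA2 (36.8 and 39.8). They were far apart for CCNB2 (464 and 42.6 CPM) and MSANTD5 (10.6 and 0.817), and SLC31A1, RSRP1 and TFAM were higher in con-2c than in si-4c. EIF1AX had -3.55 (7.36e-13) and DPPA2 -3.36 (4.83e-11), lower in si-4c than in si-2c and higher in con-4c than in con-2c. MSANTD5 had -17.83 (2.33e-17), SLC31A1 -8.98 (3.61e-17), RSRP1 -8.62 (1.09e-15) and TFAM -13.26 (5.23e-16), in the same directions as EIF1AX. These are 12 chosen genes, 8 of them for their difference in the si libraries, and 45.5% of all genes passed the same test. The 11 genes other than CCNB2 passed it under every alternative that was run. With groups of 3 libraries no single library was tested as standing apart.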

How the results depend on the processing

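Depth was similar in all 6 si libraries, and the 3 libraries of each title limit the precision. The number of higher calls depended most on scaling and threshold. Under library totals it was 50 with 3096 lower (98.4% of calls lower, against 89.0%). With at least 10 CPM in 3 libraries required, 109 were higher and 458 lower of 6674 tested, fewer genes by construction. At an adjusted p below 0.01 with a log2 fold of at least 2 there were 3 and 1051, and with no minimum fold 2169 and 3034. DESeq2 called 254 and 2560, of which 239 and 2121 were also called by edgeR. DESeq2 size factors gave 235 and 2173, no filter 271 and 2280, and the 6 si libraries alone 262 and 1862. With 1 library left out, higher calls ranged from 230 to 330 and lower calls from 1737 to 2287. The replicate block gave 257 higher and 1830 lower, and NUGGC lost its call under it (adjusted p 0.0728). Libraries with the same number did not deviate together (correlations of deviations -0.050 to 0.029 over 18 pairs of libraries), so the numbers do not pair them. The log2 difference of CCNB2 was between 0.53 and 1.11 (0.76 to 1.11 with a library left out, above the minimum of 1 without si-2c replicate 2), with adjusted p from 1.02e-09 to 0.00330. The test of the difference between stage differences passed for 11 of 12 genes under library totals and for 12 otherwise. Over 48 named genes and 901 values, 24 values crossed the threshold and 0 called values turned sign. The causes were not tested.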
